A study of Mus musculus with 32 samples.

Results

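The 6 tumors described here came from BALB/c mice that carried BNL-MEA tumors, a mouse hepatocellular carcinoma cell line grown in the liver of an immune-competent host. Of these, 3 came from mice given regorafenib at 5 mg/kg/day together with an anti-PD1 antibody, and 3 from mice given vehicle. The tumors were chosen by their labels, as the combination and vehicle groups of one batch, and make up 6 of the 32 samples in the series. The same batch held 3 tumors from mice given regorafenib at the same dose alone and 3 from mice given anti-PD1 alone, and these 6 share the fit and are described only where the combination is set against its parts. RNA of whole tumor tissue was sequenced, so each value is a mixture of the implanted cells and of host cells. The labels give neither the day of sampling nor the age or sex of the mice. One cell line in one mouse strain limits the model.

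Regorafenib, taken by mouth, blocks several kinases. Its targets include the VEGF receptors on endothelial cells and the RAF kinases upstream of ERK. PD1 is an inhibitory receptor on activated T cells, and antibodies against it release T cells from the brake that its ligand PD-L1, encoded by Cd274, applies in tumors. Liver tumors hold many macrophages, whose programs are commonly summarized as an inflammatory M1 state and a repair-associated M2 state marked by genes such as Mrc1 and Chil3. The comparison of the combination with vehicle asks which of these compartments differ at the RNA level when both agents are given.

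Total counts of the 12 libraries of the batch ranged from 20463408 to 25336811. Levels below are CPM, counts relative to a library size scaled by the trimmed mean of M values (TMM), and log2 changes are combination minus vehicle with the standard error (SE) of the fit, n = 3 tumors in each group. Albumin (Alb), the main secreted protein of hepatocytes, was at 5919.6, 5356 and 6103 CPM in the 3 vehicle tumors and at 5243, 1633 and 1903 in the 3 combination tumors, so every combination tumor was below every vehicle tumor and combination tumor 1 was close to them. Hepatocyte RNA was present in all 6. Vehicle tumor 3 stood apart in the mean log2 CPM of the hypoxia genes, at 8.06 against 6.50 and 6.58 in vehicle tumors 1 and 2, and of the mesothelial genes, at 5.73 against 2.90 and 2.57. Where leaving out 1 tumor turned a list's direction or moved its count by more than 1.5 times, the main such tumors are named beside the count.

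No gene passed an adjusted p of 0.05 between the combination and vehicle by edgeR's quasi-likelihood test, out of 16615 genes tested, and the smallest adjusted p was 0.449. At an unadjusted p under 0.05, 1362 genes (8.2% of those tested) differed, 616 of them (3.71%) higher and 746 (4.49%) lower in the combination. The balance turned to 717 higher and 601 lower under limma voom and to 696 and 680 with the replicate number as a block. It was 478 higher and 450 lower without combination tumor 2. limma voom called 0 genes at the adjusted threshold. DESeq2 called 139 genes (0.761% of the 18276 for which it gave an adjusted p), 81 of them (0.443%) higher and 58 (0.317%) lower. In 1592 genes (9.58%) every combination tumor was above every vehicle tumor, and in 1349 (8.12%) every one was below. The median log2 change over all tested genes was -0.05. Counts of list members below are at an unadjusted p under 0.05 and are to be read against these shares, and none of the members named passed the adjusted threshold of the edgeR test. The leading genes, a fixed panel and the 2 members of smallest p in each list were named by rule, and the other members named were chosen after their values were seen.

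The 5 genes with the smallest p among those higher in the combination were Ccdc39, Igkc, Mup16, Mup17 and Slc16a9, and the 5 among those lower were Nipal1, Chil3, Igfbp3, Ms4a8a and Ctla2a, all with an adjusted p of 0.449 by the edgeR test. Chil3 (ENSMUSG00000040809.10, chromosome 3, 106147554 to 106167564, minus strand, GRCm38) encodes the chitinase-like protein Ym1, a product of alternatively activated macrophages. It was at 9.72, 17.6 and 17.3 CPM in the vehicle tumors and at 0.305, 0.189 and 0.295 CPM in the combination tumors, a log2 change of -5.80 ± 1.01 (SE). The groups did not overlap, and the combination values rest on 5 to 7 counts a library. Nipal1, a member of a magnesium transporter family (chromosome 5, 72647795 to 72671078, plus strand), was at 3.38, 16.6 and 9.49 CPM in vehicle and at 0.522, 0.719 and 0.169 CPM in the combination, -4.36 ± 0.73 on the log2 scale. Ms4a8a, a membrane protein gene of the Ms4a family (chromosome 19, 11067471 to 11081102, minus strand), was at 1.77, 8.37 and 43.5 CPM in vehicle and at 0.566, 0.189 and 0.295 CPM in the combination, a log2 change of -5.66 ± 1.06. Vehicle tumor 3 was the highest for Ms4a8a, while for Nipal1 vehicle tumor 2 was. Igfbp3, the main circulating binding protein of insulin-like growth factors (chromosome 11, 7206086 to 7213923, minus strand), was at 143, 254 and 137 CPM in vehicle and at 38.8, 48.9 and 69.0 CPM in the combination, a log2 change of -1.77 ± 0.32. Ctla2a, which encodes an inhibitor of cathepsin-type proteases (chromosome 13, 60934155 to 60936625, minus strand), was at 35.9, 153 and 85.5 CPM in vehicle and at 9.53, 9.28 and 11.4 CPM in the combination, a log2 change of -3.18 ± 0.61.

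Among the leading genes that were higher, Igkc, the constant region of the immunoglobulin kappa light chain (chromosome 6, 70726435 to 70726966, plus strand), was at 6.59, 4.67 and 10.1 CPM in vehicle and at 44.5, 24.95 and 129.8 CPM in the combination, a log2 change of 3.22 ± 0.66. Slc16a9, of the monocarboxylate transporter family (chromosome 10, 70245100 to 70285968, plus strand), was at 22.5, 14.2 and 15.5 CPM in vehicle and at 35.8, 54.3 and 44.6 CPM in the combination, 1.36 ± 0.28 on the log2 scale. Ccdc39, which is needed to assemble the dynein arms of cilia (chromosome 3, 33812362 to 33844310, minus strand), was at 1.07, 1.01 and 1.25 CPM and at 3.78, 3.14 and 2.996 CPM, a log2 change of 1.57 ± 0.30. Mup16 and Mup17 belong to the major urinary proteins, a liver-made family of near-identical genes on chromosome 4 whose reads cannot be assigned with certainty to one copy. Mup16 had 1, 0 and 2 counts in the vehicle tumors and 7398, 758 and 200 counts in the combination tumors. Mup17 had 5, 0 and 1 counts in vehicle and 7941, 753 and 320 in the combination. Both were highest in combination tumor 1, the tumor with the most Alb RNA of the treated ones, while Alb itself had a log2 change of -0.99 ± 0.69.

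**Figure D1:**
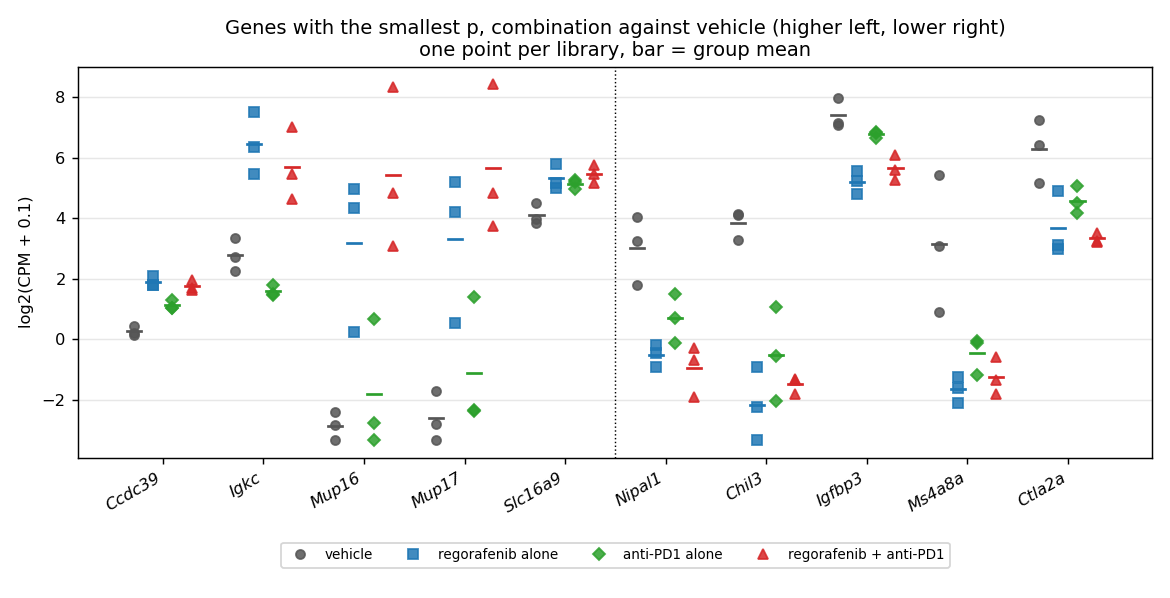
The plot shows log2(CPM + 0.1) of the 10 leading genes in each of the 12 libraries of the batch, one point per tumor with a bar at the group mean. For the 5 genes on the left the 3 combination tumors lie above the 3 vehicle tumors, and for the 5 on the right they lie below, with Chil3 between 0.189 and 0.305 CPM in the combination.

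All 3 treated groups are set against the same 3 vehicle tumors, so the levels of the leading genes under the single agents are given as they are. Chil3 was at 0.113, 0.436 and 0 CPM under regorafenib alone and at 0.582, 0.145 and 2.02 CPM under anti-PD1 alone. The 3 regorafenib libraries held 3, 8 and 0 counts of it. Ms4a8a was at 0.226, 0.327 and 0.135 CPM under regorafenib alone and at 0.873, 0.339 and 0.819 CPM under anti-PD1 alone. Igkc was at 43.8, 83.0 and 184 CPM under regorafenib alone and at 3.40, 2.71 and 2.65 CPM under anti-PD1 alone. In the 8 vehicle tumors of the other 2 experiments of the series, scaled together with this batch, Chil3 ranged from 0.0801 to 3.40 CPM with a median of 0.273, below the 3 vehicle tumors of this batch and with all 3 combination tumors inside that range. Ms4a8a ranged there from 0.0758 to 2.87 CPM with a median of 0.197. That range holds all 3 combination tumors and also vehicle tumor 1 of this batch. Ctla2a ranged from 9.64 to 110.8 CPM, Ccdc39 from 1.12 to 3.33 CPM and Mup17 from 0 to 19.3 CPM, each overlapping the combination tumors. Igkc ranged there from 0.948 to 9.90 CPM, below every combination tumor, and Igfbp3 from 167.9 to 417.6 CPM, above every combination tumor. Nipal1 was below those vehicle tumors in every combination tumor, and Slc16a9 and Mup16 were above. Among the other genes compared in this way whose vehicle and combination tumors did not overlap in this batch, the combination tumors lay inside the range of the other vehicle tumors for, among others, Foxp3, Mertk, Marco, Cd163, Ccl24, Mmp8, Msln, Hspd1, Hsp90aa1, Etv5 and Itih5. The experiments differ in batch, so these levels are descriptions.

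The endoplasmic reticulum folds secreted and membrane proteins, and when unfolded proteins gather there the cell induces chaperones such as Hspa5 (BiP) and Hsp90b1 (Grp94), disulfide isomerases and the transcription factor Xbp1. Of the 23 genes of the unfolded protein and heat shock list, all of which were tested, 13 were higher at an unadjusted p under 0.05 and 0 lower, against 3.71% and 4.49% of all genes. The median log2 change of the list was 0.82. In 15 of the 23 every combination tumor was above every vehicle tumor, against 9.58% of all genes, and in 0 every one was below. DESeq2 called 6 of the 23 at an adjusted p under 0.05, all higher, namely Creld2, Sdf2l1, Herpud1, Pdia4, Hspa5 and Hsph1. The count of 13 moved between 11 and 16 when 1 library of either group was left out and was 14 without vehicle tumor 3 and combination tumor 1.

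Hspa5, the central chaperone of the endoplasmic reticulum, was at 954, 916 and 1014 CPM in the vehicle tumors and at 1737, 1845 and 1811 CPM in the combination tumors, a log2 change of 0.90 ± 0.25. The spread within each group was small beside the gap between the groups. Hsp90b1, its partner chaperone of the Hsp90 family, was at 1006, 809.5 and 1318 CPM and at 1704, 1923 and 1976 CPM, 0.84 ± 0.26 on the log2 scale. Creld2, a protein of the endoplasmic reticulum with disulfide isomerase activity, was at 44.0, 32.9 and 47.0 CPM in vehicle and at 116, 104 and 114 CPM in the combination, 1.43 ± 0.32 on the log2 scale. The groups did not overlap for these 3 genes. Sdf2l1, which joins the chaperone complex of Hspa5, was at 27.7, 20.2 and 27.7 CPM in vehicle and at 77.1, 78.8 and 88.7 CPM in the combination, a log2 change of 1.69 ± 0.41. Manf, a secreted stress-response protein, was at 119, 111.95 and 117 CPM in vehicle and at 250.4, 236 and 245 CPM in the combination, 1.07 ± 0.34 on the log2 scale. The isomerases Pdia4 and Pdia6 had log2 changes of 1.04 ± 0.26 and 0.77 ± 0.25, Hyou1, the nucleotide exchange factor of Hspa5, of 1.32 ± 0.44, Herpud1, of the degradation machinery, of 0.82 ± 0.20, and Xbp1 of 0.65 ± 0.23. The chaperones of cytosol and mitochondria were less uniform. Hsph1, of the Hsp110 family, was at 42.5, 30.3 and 128 CPM in vehicle and at 308, 275 and 320.4 CPM in the combination, 2.17 ± 0.62 on the log2 scale, while Hsp90aa1 and the mitochondrial chaperone Hspd1 had log2 changes of 0.84 ± 0.36 and 0.81 ± 0.32. Hspe1, the partner of Hspd1, had a log2 change of 0.01. Atf4 and Ddit3, which belong to the PERK branch of the unfolded protein response, had log2 changes of -0.03 and 0.15, with overlapping groups. Hspa1a and Hspa1b are near-identical copies whose reads may be split or dropped, and their log2 changes were 2.31 and 1.43.

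**Figure D2:**
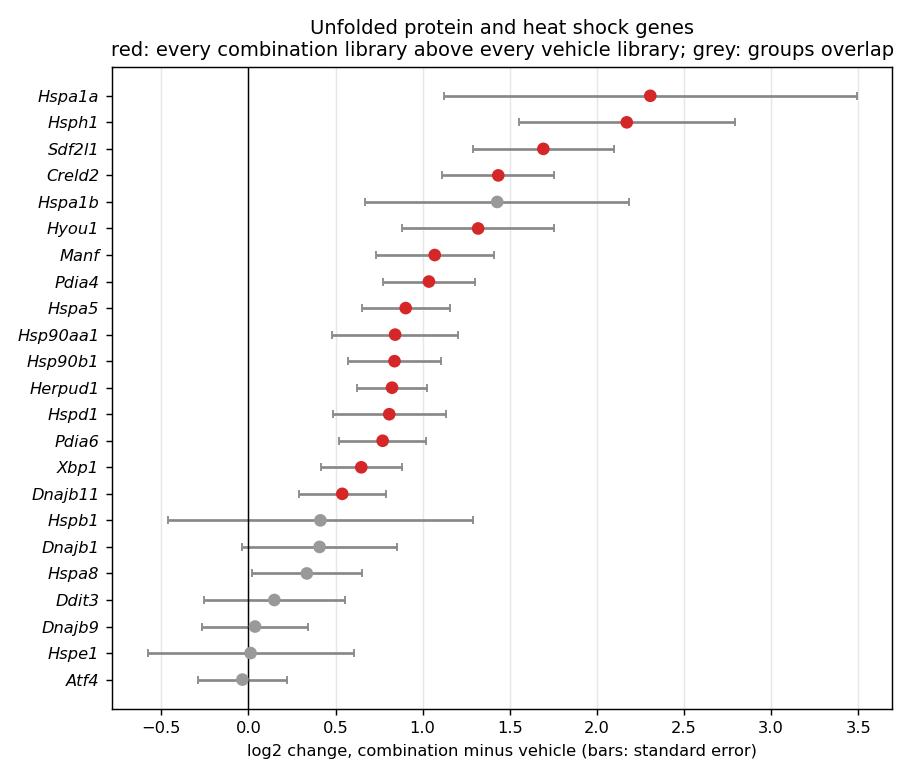
Each point is the log2 change of one of the 23 unfolded protein and heat shock genes, combination minus vehicle, with its standard error. Of the 23 genes, 15 are red, meaning that every combination tumor was above every vehicle tumor, and Atf4, Hspe1, Dnajb9 and Ddit3 sit near 0.

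Promoter sequences of the list are shown because 22 of its 23 members had a positive log2 change and because the response is known to act through short elements. The endoplasmic reticulum stress element, CCAAT and CCACG with 9 bases of any kind between them, was searched on both strands in the 250 bases before each gene's start in RefSeq (GRCm38.p6). It was found in 4 of the 19 list genes with a promoter in that table (21.1%), in 19 of 11414 tested genes with a promoter (0.166%) and in 35 of 27025 genes in all (0.13%). The 4 were Hspa5, Hsp90b1, Pdia6 and Creld2, whose upstream bases are printed 5′ to 3′ on the gene's own strand with the element in capitals.
Hspa5: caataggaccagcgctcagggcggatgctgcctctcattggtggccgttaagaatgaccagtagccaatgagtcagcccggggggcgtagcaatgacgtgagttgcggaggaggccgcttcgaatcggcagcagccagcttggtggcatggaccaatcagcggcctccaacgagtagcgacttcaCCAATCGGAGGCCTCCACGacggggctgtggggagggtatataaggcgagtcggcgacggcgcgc
Hsp90b1: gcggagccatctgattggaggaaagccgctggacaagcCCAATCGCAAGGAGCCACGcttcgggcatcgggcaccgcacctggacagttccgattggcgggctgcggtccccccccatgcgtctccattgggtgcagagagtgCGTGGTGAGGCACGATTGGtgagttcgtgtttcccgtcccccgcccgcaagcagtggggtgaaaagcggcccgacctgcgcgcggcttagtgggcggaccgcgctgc
Pdia6: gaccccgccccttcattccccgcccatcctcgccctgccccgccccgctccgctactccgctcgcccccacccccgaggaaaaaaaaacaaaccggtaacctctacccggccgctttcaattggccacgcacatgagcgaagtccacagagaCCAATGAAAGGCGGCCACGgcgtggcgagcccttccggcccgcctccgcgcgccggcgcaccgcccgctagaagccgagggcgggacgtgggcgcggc
Creld2: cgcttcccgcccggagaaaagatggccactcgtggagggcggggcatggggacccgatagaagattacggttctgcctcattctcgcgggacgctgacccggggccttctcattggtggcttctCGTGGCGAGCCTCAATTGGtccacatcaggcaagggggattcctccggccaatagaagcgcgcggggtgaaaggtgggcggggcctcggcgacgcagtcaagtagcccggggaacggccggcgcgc
These windows are chr2:34771840-34772089 on the plus strand, chr10:86705445-86705694 on the minus strand, chr12:17266339-17266588 on the plus strand and chr15:88819396-88819645 on the plus strand. Hsp90b1 holds 2 copies that do not overlap, and the copy of Creld2 is on the opposite strand. The heat shock element, searched as GAA, TTC and GAA with 2 bases of any kind after each of the first parts, was found in 2 of the 19 list genes (10.5%), in 0.429% of the tested genes and in 0.514% of all genes in the table. These 2 were Hspd1 and Hspe1, which are transcribed in opposite directions on chromosome 1 from overlapping windows that share the matches.
Hspd1: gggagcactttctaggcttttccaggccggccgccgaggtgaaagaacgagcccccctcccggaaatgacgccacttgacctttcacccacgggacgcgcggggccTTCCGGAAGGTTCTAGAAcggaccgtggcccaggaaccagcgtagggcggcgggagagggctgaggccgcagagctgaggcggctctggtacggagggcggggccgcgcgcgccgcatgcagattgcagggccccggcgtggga
The Hspd1 window is chr1:55087933-55088182 on the minus strand, and its 2 matches, one on each strand, overlap. Hspd1 and Hspe1 had log2 changes of 0.81 and 0.01 although they hold the same element. The share of the list with an element depends on which genes it holds and not on their levels in these tumors. A match of letters is a description of the sequence and not evidence that a factor was bound.

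The single agents were set beside the combination for the same list. Against vehicle, the median log2 change of the 23 genes was 0.61 under regorafenib alone, 0.74 under anti-PD1 alone and 0.82 under the combination, all relative to the same 3 vehicle tumors. Over all genes, 4.87% were higher and 6.95% lower at an unadjusted p under 0.05 under regorafenib alone, and 4.88% higher and 8.78% lower under anti-PD1 alone. Compared directly, 1 of the 23 genes was higher at an unadjusted p under 0.05 in the combination than under regorafenib alone and 1 than under anti-PD1 alone, against 2.35% and 6.52% of all genes. Hspa5 was at 1354, 1975 and 1390.2 CPM under regorafenib alone and at 1617, 2000.5 and 1351 CPM under anti-PD1 alone. Hspa5 in the 8 vehicle tumors of the other experiments ranged from 648 to 1103 CPM, and Creld2 from 30.3 to 55.2 CPM, below every combination tumor. Hsp90aa1 ranged there from 245 to 1087 CPM with a median of 512 and Hspd1 from 209 to 502 CPM, ranges that hold all 3 combination tumors.

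T cells carry the receptor through which anti-PD1 acts. Of the 25 T cell and cytotoxicity genes, all tested, 24 had a positive log2 change and the median was 1.10. Of these 25, 4 were higher at an unadjusted p under 0.05, namely Cd5, Gzmk, Cd4 and Cd2, and 0 were lower. With limma voom and all tumors kept, 12 were higher and the median was 1.53. Cd5, a surface receptor that tunes T cell receptor signals, was at 0.782, 0.152 and 0.223 CPM in vehicle and at 1.26, 1.86 and 3.21 CPM in the combination, a log2 change of 2.41 ± 0.76. Cd4, the coreceptor of helper T cells, was at 2.31, 0.862 and 0.757 CPM in vehicle and at 2.57, 3.07 and 5.06 CPM in the combination, 1.44 ± 0.58 on the log2 scale. Gzmk, a granzyme of effector and memory T cells, was at 0.412, 0.507 and 0.0891 CPM in vehicle and at 0.740, 0.984 and 1.90 CPM in the combination, a log2 change of 1.84 ± 0.63. The groups did not overlap for these 3 genes. Cd8a, the coreceptor of cytotoxic T cells, was at 14.7, 3.65 and 0.712 CPM in vehicle and at 8.35, 10.1 and 16.9 CPM in the combination, with overlapping groups and a log2 change of 0.89 ± 0.81. Gzmb, Ifng and Ccl5, products of activated killer cells, had log2 changes of 0.03 ± 0.66, 1.30 ± 1.09 and 0.94 ± 0.70, also with overlapping groups. Pdcd1, which encodes PD1 itself, was at 7.58, 5.78 and 2.23 CPM and at 3.22, 5.07 and 10.9 CPM, and Cd274 at 23.9, 8.12 and 19.6 CPM and at 4.79, 7.46 and 14.0 CPM, so neither separated the groups.

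Vehicle tumor 1 was high for the T cell genes. Their mean log2 CPM was 1.92, 0.59 and -0.69 in the vehicle tumors and 1.37, 1.89 and 2.59 in the combination tumors. Without vehicle tumor 1, 19 of the 25 genes were higher at an unadjusted p under 0.05 and the median was 2.11. The count was 2 without vehicle tumor 2, 2 without vehicle tumor 3 and 1 without combination tumor 3. In bulk tissue, more cells of a type and more RNA per cell cannot be told apart.

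Foxp3, the lineage factor of regulatory T cells, was at 0.412, 0.101 and 0.312 CPM in the vehicle tumors and at 0.914, 1.89 and 3.46 CPM in the combination tumors, a log2 change of 2.88 ± 0.72 with groups that did not overlap. It was the only 1 of the 7 tested regulatory T cell genes at an unadjusted p under 0.05, and the list's median log2 change was 0.91. The count was 3 without vehicle tumor 1, and 2 without vehicle tumor 3 or without combination tumor 1. Of the 10 tested NK cell genes, 9 had a positive log2 change and 0 passed an unadjusted p under 0.05, with a median of 0.70. Of the 10, 6 were higher without vehicle tumor 1, where the median was 1.93, and without vehicle tumor 3 the median was 0.29. Ncr1, the NK cell activating receptor NKp46, was at 2.47, 0.812 and 0.223 CPM in vehicle and at 2.18, 3.56 and 3.04 CPM in the combination. Of the 14 tested checkpoint receptors and ligands, Btla alone passed, with a log2 change of 1.13 ± 0.45, and the list's median was 0.10. The count was 2 without vehicle tumor 1 and 0 without vehicle tumor 2, vehicle tumor 3 or combination tumor 3, and without either of the last 2 the median was negative, at -0.05 and -0.14.

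B cells and the plasma cells that arise from them make immunoglobulin. Of the 15 tested B cell and plasma cell genes, 7 were higher and 1 lower at an unadjusted p under 0.05, with a median log2 change of 0.97. The 7 were Igkc, Jchain, Iglc2, Ighm, Mzb1, Ms4a1 and Xbp1, and the last of these was also described above with the unfolded protein genes. The 1 that was lower was Sdc1, which hepatocytes and epithelial cells also express. Jchain, which links secreted IgM and IgA, was at 1.56, 1.52 and 1.91 CPM in vehicle and at 7.48, 5.76 and 39.9 CPM in the combination, a log2 change of 3.40 ± 0.77. Ighm, the heavy chain of IgM, was at 50.6, 10.5 and 13.6 CPM and at 71.0, 123 and 279 CPM, 2.66 ± 0.65 on the log2 scale. Ighg1, the heavy chain of IgG1, was at 1.69, 0.254 and 1.60 CPM in vehicle and at 17.4, 8.86 and 76.8 CPM in the combination, a log2 change of 4.84 ± 1.12. Combination tumor 3 was the highest for each of these immunoglobulin genes. Mzb1, a chaperone of immunoglobulin assembly, had a log2 change of 2.94 ± 0.73, and Ms4a1, the B cell antigen CD20, of 1.55 ± 0.61 at levels of 0.827, 0.682 and 1.81 CPM in the combination. Leaving out 1 library of either group gave 5 to 9 genes higher, and the median was 1.78 without vehicle tumor 3 and 0.54 without combination tumor 3. Iglc2 has close copies in the lambda locus, and its value may hold reads of these.

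**Figure D3:**
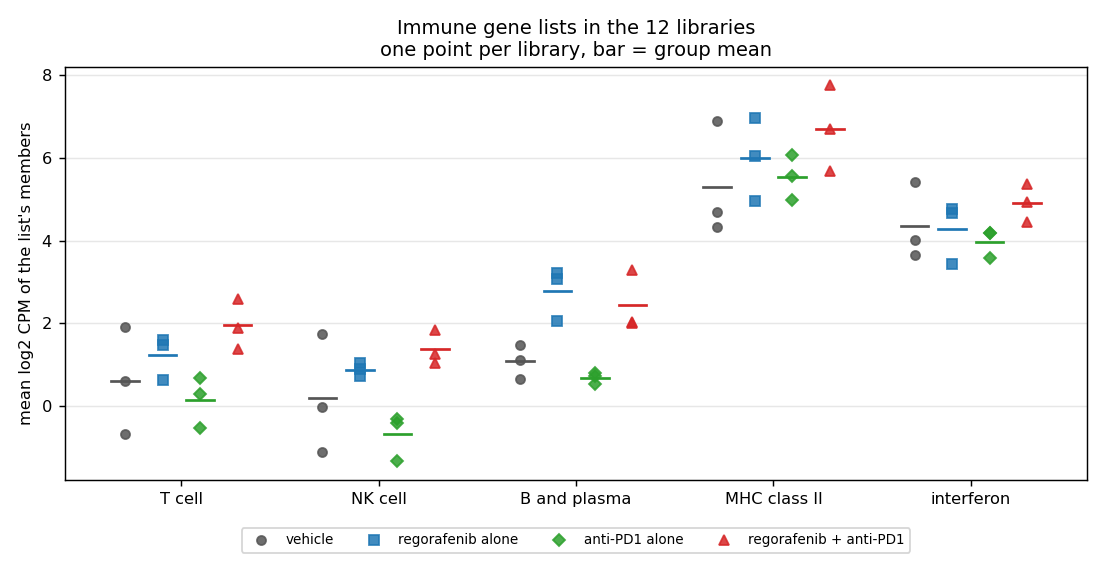
The plot gives the mean log2 CPM of the tested members of 5 immune lists in each of the 12 tumors, with a bar at each group's mean. Combination tumors are above all vehicle tumors for the B and plasma cell list, from 2.01 to 3.30 against 0.64 to 1.46, while for the T cell list vehicle tumor 1 reaches 1.92, inside the combination's range.

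MHC class II genes present antigen to CD4 T cells. Of the 12 tested, 11 had a positive log2 change and the median was 1.21, but only H2-Ob passed an unadjusted p under 0.05. H2-Aa, a chain of the class II molecule itself, was at 1186, 120.3 and 92.1 CPM in vehicle and at 312, 934 and 2029.5 CPM in the combination, and Cd74, its invariant chain, at 2118, 171 and 238 CPM and at 686, 1991 and 4237 CPM. The range within each group exceeded the difference between the groups for both, and vehicle tumor 1 was the high one among the controls. Without it 9 of the 12 class II genes were higher at an unadjusted p under 0.05 and the median was 2.89. The count was 0 without vehicle tumor 2, vehicle tumor 3 or combination tumor 3, and without combination tumor 3 the median was 0.39. Of the 35 interferon response genes, Oas1a alone passed an unadjusted p under 0.05, and the median log2 change was 0.48. Without vehicle tumor 1, 15 of the 35 were higher and the median was 1.12, while 0 passed without vehicle tumor 2, vehicle tumor 3, combination tumor 2 or combination tumor 3. Cxcl9 and Cxcl10, interferon-induced chemokines that draw T cells, were at 291, 13.6 and 10.96 CPM and at 53.9, 9.18 and 7.93 CPM in vehicle against 36.1, 60.0 and 217 CPM and 24.0, 30.9 and 53.2 CPM in the combination. Without vehicle tumor 1 the log2 change of Cxcl9 went from -0.01 to 3.06, and it was 0.40 without combination tumor 1, so Cxcl9 has no stable direction. Calr and Pdia3, which load class I molecules and also serve as chaperones, were the 2 of 15 class I genes that passed, at 0.85 ± 0.26 and 0.64 ± 0.26 on the log2 scale. The count was 11 without vehicle tumor 1, with a median of 0.87 against 0.44 with it, and the count was 1 without vehicle tumor 3 or any 1 of the combination tumors.

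Macrophages enter tumors as blood monocytes or arise from resident cells of the liver. Of the 18 macrophage genes tested, 4 were higher at an unadjusted p under 0.05 and 1 lower. The count of higher genes was 2 without vehicle tumor 2, combination tumor 2 or combination tumor 3. The 1 that was lower was Mertk, the receptor with which resident macrophages clear dead cells, was at 32.6, 53.2 and 41.0 CPM in vehicle and at 11.7, 12.3 and 15.02 CPM in the combination, a log2 change of -1.70 ± 0.36. Cd14, the coreceptor for bacterial lipopolysaccharide, was at 93.1, 96.9 and 160.2 CPM and at 168, 208 and 244 CPM, 0.82 ± 0.26 on the log2 scale. Ccr2, the receptor with which monocytes follow Ccl2 out of the blood, was at 122, 62.2 and 69.6 CPM in vehicle and at 184, 254 and 369.6 CPM in the combination, a log2 change of 1.67 ± 0.54. These 3 genes had groups that did not overlap. Cx3cr1 and Fcgr1 were the other 2 that were higher, with overlapping groups. Adgre1, which encodes the pan-macrophage antigen F4/80, was at 104, 83.6 and 109.8 CPM and at 94.8, 139 and 181 CPM, 0.48 ± 0.31 on the log2 scale, with overlapping groups.

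Ccl2, Ccl7 and Ccl12 are ligands of Ccr2. Ccl2 was at 69.3, 21.4 and 35.7 CPM in vehicle and at 128, 86.9 and 105 CPM in the combination, a log2 change of 1.34 ± 0.54. Ccl7 was at 13.2, 8.17 and 14.5 CPM in vehicle and at 48.1, 43.9 and 60.8 CPM in the combination, a log2 change of 2.09 ± 0.58. Ccl12 was at 41.8, 36.7 and 10.4 CPM in vehicle and at 130.1, 173 and 155 CPM in the combination, 2.37 ± 0.56 on the log2 scale. For these 3 chemokines every combination tumor was above every vehicle tumor. They lie in one gene cluster and resemble each other, and are 3 of the 4 genes that were higher at an unadjusted p under 0.05 among the 11 monocyte chemokine genes, with Ccr2 the other. The 1 that was lower was Ccl6, a macrophage and neutrophil chemokine, at 52.0, 316 and 1059 CPM in vehicle and at 70.5, 39.8 and 40.6 CPM in the combination, with overlapping groups, and it no longer passed without vehicle tumor 3. In the vehicle tumors of the other experiments Ccl12 ranged from 6.81 to 25.2 CPM and Ccl7 from 2.84 to 9.78 CPM, below every combination tumor. Mertk ranged there from 6.83 to 58.1 CPM with a median of 11.3, a range that holds all 3 combination tumors.

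Of the 15 tested M2 markers, 6 were lower at an unadjusted p under 0.05 and 1 was higher, with a median log2 change of -0.49. Chil3, Cd163, Ccl24, Clec10a and Klf4 were among the lower ones. Cd163, the scavenger receptor for hemoglobin, was at 8.65, 120.1 and 118 CPM in vehicle and at 4.57, 4.85 and 2.15 CPM in the combination, a log2 change of -4.41 ± 1.18. Ccl24, which draws eosinophils, was at 4.61, 4.77 and 14.4 CPM in vehicle and at 1.96, 0.568 and 1.05 CPM in the combination, -2.73 ± 0.78 on the log2 scale. Vehicle tumor 3 was at or near the top for both genes. Mrc1, the mannose receptor, is a common marker of this state and was at 165, 568 and 277 CPM in vehicle and at 340.5, 348 and 311 CPM in the combination, with no direction. Klf4, a transcription factor that favors the M2 program, had a log2 change of -1.06 ± 0.45. Mmp9, a matrix-degrading protease of myeloid cells, was the 1 that was higher, at 0.98 ± 0.32. The median was -0.15 without vehicle tumor 2, -0.21 without combination tumor 1 and -0.23 under limma voom. Without vehicle tumor 3 the count of lower genes was 3, and the count of higher genes was 2 without vehicle tumor 1 or vehicle tumor 3. In the 8 vehicle tumors of the other experiments Ccl24 ranged from 0.189 to 2.79 CPM and Cd163 from 1.90 to 89.1 CPM with a median of 3.46, so the combination tumors lay within the range of those vehicle tumors for both genes. Klf4 ranged there from 19.1 to 37.7 CPM, above every combination tumor. Hepatic macrophages express several of these markers at rest, so the list is not specific to tumor macrophages, and the part of other liver cells in these values was not tested.

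Of the 16 M1 markers, 4 were higher and 2 lower at an unadjusted p under 0.05, with a median log2 change of 0.30. Without vehicle tumor 1, 6 were higher and the median was 0.94, and the count of higher genes was 2 without vehicle tumor 2 or combination tumor 2 and 1 without combination tumor 3, where the median was 0.04. The count of lower genes was 1 without vehicle tumor 3 or combination tumor 2. Il1b, an inflammatory cytokine, was at 26.6, 5.17 and 47.0 CPM in vehicle and at 50.3, 80.6 and 94.6 CPM in the combination, 1.52 ± 0.64 on the log2 scale. Il12a and Il12b, the subunits of the T cell activating cytokine IL-12, had log2 changes of 1.26 ± 0.48 and 2.19 ± 0.94 at levels of 2.09, 1.86 and 1.73 CPM and 0.435, 1.06 and 0.928 CPM in the combination, and Fpr2, a formyl peptide receptor, of 1.28 ± 0.42. Marco, a scavenger receptor of resident macrophages, was at 1.56, 1.98 and 26.5 CPM in vehicle and at 0.348, 0.189 and 0.338 CPM in the combination, and Cd38 had a log2 change of -1.17 ± 0.41. Marco in the vehicle tumors of the other experiments ranged from 0.0758 to 0.440 CPM, a range that holds the combination tumors. Nos2, the inducible nitric oxide synthase, was at 8.24, 1.37 and 31.97 CPM and at 3.05, 6.17 and 8.06 CPM, with overlapping groups. Tnf was at 4.32, 0.507 and 3.79 CPM in vehicle and at 6.003, 5.38 and 10.001 CPM in the combination, 1.30 ± 0.66 on the log2 scale, with groups that did not overlap. Of 24 tested TNF and NF-kB targets, 6 were higher at an unadjusted p under 0.05 and 0 lower, led by Nfkbie (1.08 ± 0.31) and Vcam1 (0.70 ± 0.26), while without vehicle tumor 2, 1 was higher and 2 lower with a median of 0.09 against 0.38, and without combination tumor 2, 3 were higher. Without vehicle tumor 3, 7 were higher and the median was 0.85, and without combination tumor 3 the median was 0.21.

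Mapk14, which encodes the kinase p38 alpha, and Creb1, which encodes a transcription factor activated by cyclic AMP, had log2 changes of 0.04 ± 0.20 and 0.20 ± 0.18 and overlapping groups. ERK pathway feedback genes report the activity of the pathway that RAF kinases feed. Of 23 in the list, 3 were higher and 1 lower at an unadjusted p under 0.05, with a median log2 change of 0.19. Without vehicle tumor 3, 9 were higher and 0 lower and the median was 0.84. Without vehicle tumor 2, 1 was higher and 0 lower and the median was -0.02, and it was -0.06 without vehicle tumor 1. Dusp6, a phosphatase induced by ERK, was at 105, 80.8 and 111.5 CPM in vehicle and at 188, 184 and 218 CPM in the combination, a log2 change of 0.99 ± 0.25. Ccnd1, cyclin D1, was at 501, 299.5 and 462 CPM and at 895, 799.6 and 784 CPM, 0.97 ± 0.37 on the log2 scale, and Etv5 had a log2 change of 0.88 ± 0.36. Dusp1 was lower, at -2.19 ± 0.91, with overlapping groups. Mki67, a proliferation marker, was at 238, 75.2 and 253 CPM in vehicle and at 259.7, 259 and 220.1 CPM in the combination, and of the 25 proliferation genes Plk1 alone passed an unadjusted p under 0.05. That count was 4 without vehicle tumor 1 and 0 without any 1 of the other tumors of both groups.

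Endothelial cells line the blood vessels and carry the VEGF receptors. Of the 26 endothelial genes, all tested, 8 were lower at an unadjusted p under 0.05 and 0 higher, the median log2 change was -0.65 and 21 of 26 had a negative value. In 8 of the 26 every combination tumor was below every vehicle tumor, against 8.12% of all genes. Cldn5, the tight junction protein of endothelium, was at 11.9, 29.5 and 9.31 CPM in vehicle and at 4.002, 2.99 and 4.73 CPM in the combination, a log2 change of -2.11 ± 0.46. Egfl7, a secreted vessel matrix factor, was at 25.4, 51.9 and 21.8 CPM in vehicle and at 15.5, 10.3 and 13.3 CPM in the combination, a log2 change of -1.34 ± 0.36. Esam, an endothelial adhesion molecule, was at 21.7, 31.7 and 20.8 CPM and at 13.9, 11.02 and 13.0 CPM, -0.97 ± 0.27 on the log2 scale. Vehicle tumor 2 was the highest for these 3 genes, and the groups did not overlap for any of them. Flt1, VEGF receptor 1, was at 24.4, 18.9 and 31.6 CPM in vehicle and at 13.0, 9.84 and 12.4 CPM in the combination, -1.09 ± 0.41 on the log2 scale. The transcription factors Sox17 and Erg had log2 changes of -1.60 ± 0.47 and -1.11 ± 0.45, and Clec14a and Emcn of -2.07 ± 0.66 and -0.90 ± 0.37. Kdr, VEGF receptor 2 and a target of regorafenib, was at 26.6, 16.2 and 29.7 CPM in vehicle and at 18.9, 20.0 and 21.2 CPM in the combination, with overlapping groups, and Pecam1 (CD31) at 43.0, 80.2 and 35.0 CPM and at 35.2, 27.1 and 42.7 CPM, likewise overlapping. The count of 8 was 5 without vehicle tumor 2, 5 without combination tumor 2 and 10 without vehicle tumor 3. Against the same vehicle tumors the median of the list was -1.04 under regorafenib alone and -0.66 under anti-PD1 alone. Compared directly with regorafenib alone, 2 of the 26 were higher and 0 lower, against 2.35% and 1.29% of all genes. Compared with anti-PD1 alone, 2 were higher and 2 lower, against 6.52% and 2.17% of all genes.

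Pericytes wrap small vessels. Of 12 pericyte and smooth muscle genes, 2 were lower and 1 higher at an unadjusted p under 0.05, with a median log2 change of -0.60. Without vehicle tumor 3, 3 were lower and 3 higher and the median was 0.35, so the direction of the median rests on that tumor. Kcnj8, a potassium channel subunit of pericytes, was at 22.9, 25.3 and 15.6 CPM in vehicle and at 3.70, 5.38 and 5.95 CPM in the combination, a log2 change of -2.09 ± 0.54, and Mcam was at 51.6, 63.4 and 41.4 CPM and at 28.5, 23.9 and 30.5 CPM, -0.91 ± 0.24 on the log2 scale. Of 23 tested angiogenic sprouting genes, 3 were lower and 0 higher, among them Nid2 and Kcne3 at -1.25 ± 0.40 and -1.45 ± 0.49. The median of this list was -0.48, but without vehicle tumor 3 it was 0.47, with 3 genes higher and 1 lower, so its direction rests on that tumor as well. Esm1, a tip cell gene induced by VEGF, was at 21.6, 8.17 and 18.7 CPM in vehicle and at 3.05, 8.14 and 9.58 CPM in the combination, with overlapping groups. Of the 6 tested erythrocyte genes, 4 were lower at an unadjusted p under 0.05, all of them hemoglobin genes, and Hbb-bs was at 123, 328 and 436 CPM in vehicle and at 72.7, 10.1 and 42.4 CPM in the combination, a log2 change of -2.82 ± 0.90. The hemoglobin genes resemble each other in pairs, and the count was 1 without vehicle tumor 3, without combination tumor 2 or without combination tumor 3. Blood content moved with the vessel genes, and its part in them was not tested.

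Vegfa, the ligand of these receptors and a hypoxia-induced gene, was at 63.5, 42.3 and 563 CPM in vehicle and at 79.0, 88.1 and 99.2 CPM in the combination. Its log2 change was -1.33 ± 0.83 with vehicle tumor 3 and 0.75 without it. The 23 hypoxia genes behaved likewise, with a median of -0.59 over all tumors and 0.30 without vehicle tumor 3. Msln, a marker of the mesothelium that covers the liver, was at 71.2, 278 and 316 CPM in vehicle and at 48.9, 48.4 and 53.0 CPM in the combination, and the mean log2 CPM of the mesothelial list was 2.90, 2.57 and 5.73 in vehicle against 0.60, 2.49 and 2.96 in the combination. The median log2 change of the mesothelial list was -2.14 with vehicle tumor 3 and -0.12 without it. Of the 16 tested neutrophil genes, Retnlg and Mmp8 were lower at an unadjusted p under 0.05 and 0 were higher, while 1 was higher without vehicle tumor 3 and 1 was lower without combination tumor 2. Of the 20 fibroblast and matrix genes, Fbln2 alone passed, and it was at 183, 138 and 1167 CPM in vehicle, where tumor 3 was the high one. Without vehicle tumor 3, 3 of the 20 were higher and 0 lower, and the median went from -0.05 to 0.23. The call of Fbln2 was also lost without any 1 of the combination tumors, under limma voom and with the replicate block, and the median was 0.10 without combination tumor 1.

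**Figure D4:**
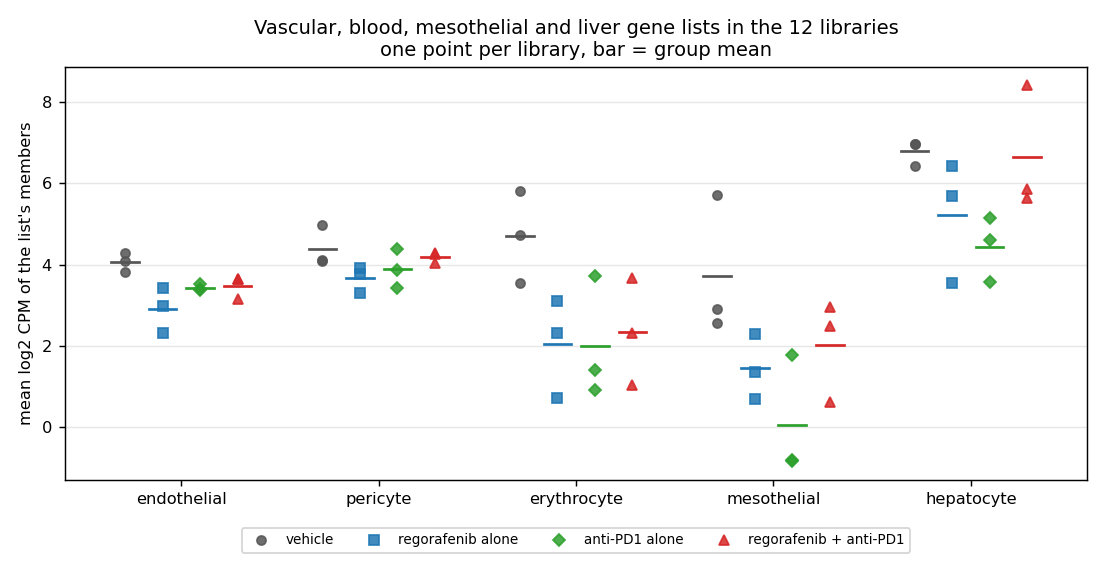
The plot gives the mean log2 CPM of the tested members of 5 lists in each of the 12 tumors, with a bar at each group's mean. Endothelial values of the combination tumors, 3.16 to 3.65, lie below the 3.82 to 4.29 of the vehicle tumors, and combination tumor 1 stands out in the hepatocyte list at 8.42.

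Hepatocyte genes, 40 in number and all tested, had a median log2 change of 0.22, with 3 higher and 0 lower at an unadjusted p under 0.05. Their mean log2 CPM was 6.97, 6.43 and 6.97 in vehicle and 8.42, 5.87 and 5.63 in the combination, so combination tumor 1 was above and the other two below every vehicle tumor. Without combination tumor 1, 0 of the 40 were higher and 13 lower, and the median was -1.11. With all tumors kept it was -0.29 under limma voom and -0.03 with the replicate block, so the list has no stable direction. It was -0.28 with the hepatocyte covariate, which is made from these same 40 genes and so cannot decide the direction. Mup3 was at 56.1, 4.01 and 9.89 CPM in vehicle and at 1609, 149 and 107 CPM in the combination. Adding the hepatocyte score to the model as a covariate left 13 unfolded protein and heat shock genes higher, 8 endothelial genes lower and 6 M2 markers lower. These 3 counts are the same as without the covariate, while M1 markers went from 4 to 2 higher, class II genes from 1 to 0 with a median of 0.74 in place of 1.21, macrophage genes from 4 to 3 and TNF and NF-kB targets from 6 to 5.

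**Figure D5:**
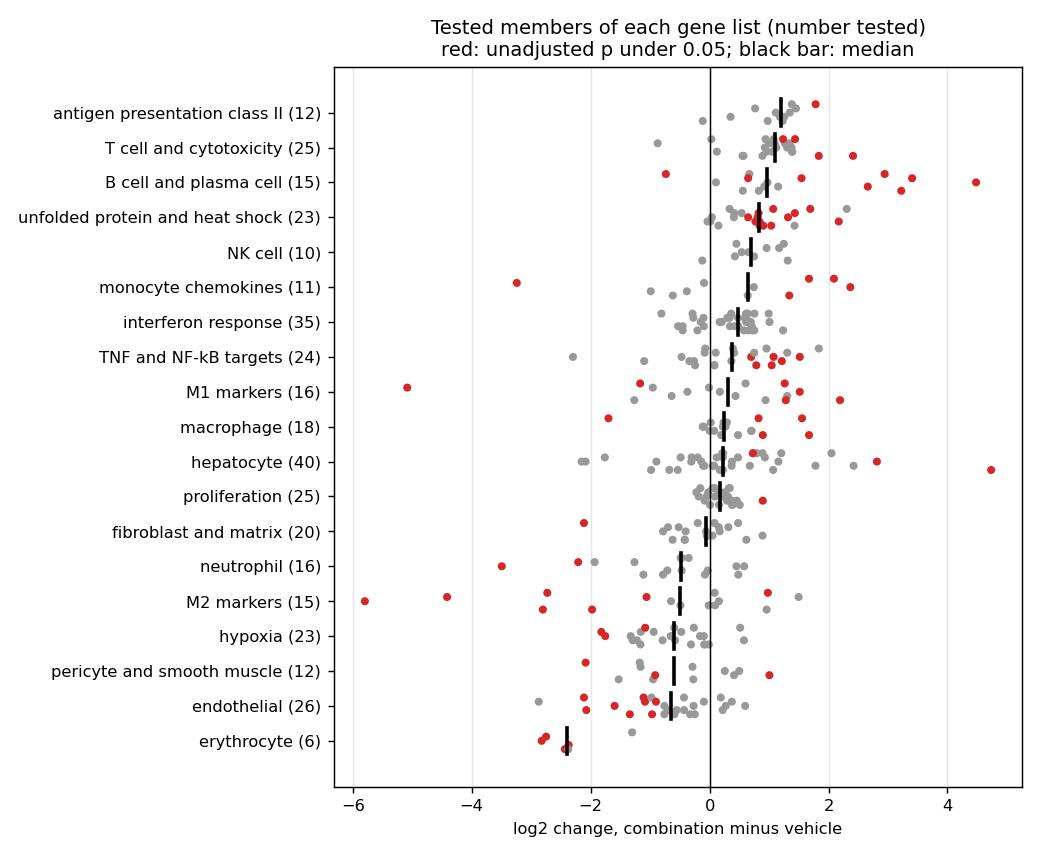
Each point is the log2 change of one tested gene, combination minus vehicle, grouped by list, with the number tested in parentheses, a bar at the list's median and red for an unadjusted p under 0.05. The unfolded protein and heat shock list has 13 red points, all to the right of 0, and the endothelial list has 8, all to the left.

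Gene sets for M1 macrophages, M2 macrophages and the IL-6 response that the study took from earlier publications were also counted. Of 48 tested genes of its M1 list, 3 were higher and 4 lower at an unadjusted p under 0.05, with a median log2 change of 0.34, and of 30 tested genes of its M2 list, 2 were higher and 2 lower, with a median of 0.05. In the M1 list, 15 were higher without vehicle tumor 1, while 0 were without combination tumor 3, and without vehicle tumor 3, 6 of the M2 list were higher and 0 lower. Cd300lf, an inhibitory myeloid receptor of the M1 list, was lower (-1.25 ± 0.35), and Olfm1 of the M2 list was higher (1.40 ± 0.31). Of the 15 tested genes of the study's IL-6 list, Ifitm3 alone was higher, and the median was -0.68. Without combination tumor 1, 0 were higher and 4 lower. Il6 itself was at 0.700, 0.406 and 6.23 CPM in vehicle and at 0.435, 2.20 and 1.14 CPM in the combination, with overlapping groups.

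Setting the combination against regorafenib alone asks what differs when anti-PD1 is added. No gene passed an adjusted p of 0.05 by the edgeR test, with the smallest adjusted p at 0.889, and 605 genes (3.64%) had an unadjusted p under 0.05, 390 higher (2.35%) and 215 lower (1.29%). The balance turned to 207 higher and 595 lower without regorafenib tumor 3 and to 219 higher and 356 lower with the hepatocyte score as a covariate, and the total was 228 without combination tumor 1. limma voom and DESeq2 also called 0 genes. The 5 with the smallest p were Frat1, Crip2, Cldn3, Igkv14-111 and Atp9a. Cldn3, a tight junction protein of epithelia, was at 5.27, 3.38 and 2.74 CPM under regorafenib alone and at 33.0, 9.43 and 9.11 CPM in the combination, a log2 difference of 2.17 ± 0.56. Crip2 was at 11.1, 4.85 and 5.34 CPM and at 25.1, 14.0 and 17.3 CPM, 1.40 ± 0.35 on the log2 scale. Igkv14-111, a single kappa variable gene, was at 1.20, 5.01 and 8.62 CPM under regorafenib alone and at 0.261, 0.0757 and 0.675 CPM in the combination. Of the 25 T cell genes 0 passed an unadjusted p under 0.05, with a median difference of 0.66. This median was 0.28 without combination tumor 3 and 1.19 with the hepatocyte score as a covariate. Of the 40 hepatocyte genes 12 were higher and 0 lower. The count of 12 was 0 without combination tumor 1, 4 without regorafenib tumor 3, 27 without regorafenib tumor 2, 21 without combination tumor 2 and 23 without combination tumor 3.

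Setting the combination against anti-PD1 alone asks what differs when regorafenib is added. No gene passed an adjusted p of 0.05 by the edgeR test, with the smallest at 0.337, while 1443 genes (8.68%) had an unadjusted p under 0.05, 1083 higher (6.52%) and 360 lower (2.17%). The total was 780 without anti-PD1 tumor 1, 846 without combination tumor 1, 2302 without regorafenib tumor 2, 899 with the hepatocyte covariate and 3793 (2128 higher, 1665 lower) when only the 2 groups were fitted. limma voom called 0 and DESeq2 175. The 5 genes with the smallest p were Ak3, Igkc, Jchain, Tnnt2 and Foxp3. Ak3, an adenylate kinase of the mitochondrial matrix, was at 23.7, 26.2 and 32.6 CPM under anti-PD1 alone and at 89.1, 76.0 and 64.0 CPM in the combination, a log2 difference of 1.47 ± 0.21. Foxp3 was at 0.0971, 0.0969 and 0.0482 CPM under anti-PD1 alone, and the difference was 4.6 ± 0.84. Igkc and Jchain differed by 4.5 ± 0.70 and 4.66 ± 0.83, and Tnnt2, cardiac troponin T, by -3.28 ± 0.60. None of these overlapped between the groups.

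Lymphocyte genes were counted in the same way. Of the 25 T cell and cytotoxicity genes, 16 were higher in the combination than under anti-PD1 alone at an unadjusted p under 0.05 and 0 lower, against 6.52% and 2.17% of all genes, with a median difference of 1.81. Of the 10 NK cell genes 7 were higher and 0 lower, with a median of 2.15, and Ncr1 was at 0.243, 0.0969 and 0.241 CPM under anti-PD1 alone. Of the 15 B cell and plasma cell genes 9 were higher and 1 lower. The anti-PD1 tumors were themselves below vehicle in these lists. Against vehicle, the median log2 changes of the T cell, NK cell and B cell lists were -0.71, -1.63 and -0.88 under anti-PD1 alone. Under the combination they were 1.10, 0.70 and 0.97. The count for T cell genes was 5 without combination tumor 3 and 6 without anti-PD1 tumor 2, and 22 without both vehicle tumor 3 and combination tumor 1. Of the 40 hepatocyte genes 36 were higher and 0 lower, a count that was 4 without combination tumor 1 and 22 without anti-PD1 tumor 1. Liver RNA moved with this comparison, and with the hepatocyte score as a covariate 20 T cell genes were higher. Alb was at 280.4, 689.5 and 1486 CPM under anti-PD1 alone.

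The departure from additivity is the log2 level of the combination minus that of each single agent plus that of vehicle, and asks whether the combination differs from the sum of the parts. No gene passed an adjusted p of 0.05 by the edgeR test, the smallest being 0.243, and 1794 genes (10.8%) had an unadjusted p under 0.05, 1335 higher (8.03%) and 459 lower (2.76%). limma voom called 0 and DESeq2 517. The 5 with the smallest p were Itih5, Elane, Epas1, Trf and Frat1, each lower under both single agents than in either vehicle or the combination. Epas1, which encodes HIF-2 alpha, was at 41.5, 26.4 and 44.7 CPM in vehicle, at 18.3, 10.3 and 15.1 CPM under regorafenib alone, at 9.22, 10.5 and 15.5 CPM under anti-PD1 alone and at 30.5, 22.1 and 22.5 CPM in the combination, a departure of 2.46 ± 0.44 on the log2 scale. Trf, the liver-made iron carrier transferrin, was at 520.1, 301 and 411 CPM in vehicle, at 169.7, 120.5 and 81.9 CPM under regorafenib alone, at 78.5, 108 and 136 CPM under anti-PD1 alone and at 569.9, 222 and 204 CPM in the combination. The vehicle level enters this departure. In the 8 vehicle tumors of the other experiments Alb reached 2521 CPM and Trf 131.6 CPM at most. Every vehicle tumor of this batch was above these values. So was every combination tumor for Trf, while for Alb the combination tumors overlapped the other vehicle tumors. How much of the departure rests on the vehicle level was not tested. Of the 40 hepatocyte genes 33 were higher than the sum at an unadjusted p under 0.05 and 0 lower. Without combination tumor 1, 25 were higher and 1 lower. With the hepatocyte score as a covariate, which is made from these same 40 genes, 1117 genes had an unadjusted p under 0.05, 574 higher and 543 lower. Of the 23 unfolded protein and heat shock genes 0 departed at an unadjusted p under 0.05, and their median departure was -0.43.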

How the data were processed

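RNA of BNL-MEA tumor tissue, frozen per the labels and called fresh in the study's methods, was sequenced as TruSeq stranded mRNA libraries on a NextSeq 500. The raw counts per gene were made and deposited by the authors, who trimmed reads with cutadapt 2.4, aligned them with STAR 2.7.2a to GRCm38 and counted them on Gencode M19. Which strand column of the counts was kept is not given in the sources used here. Groups came from the labels, and the study states that 3 tumors per group were sequenced.

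All 12 libraries of the batch entered one model (R 4.3.3, edgeR 4.0.16, TMM scaling, filterByExpr with a minimum count of 10 and total of 15, robust quasi-likelihood F-test, two-sided), which left 16615 of 54446 genes. P-values were adjusted by Benjamini-Hochberg over these genes. They measure only the spread between these tumors. Levels are TMM-scaled CPM, and list scores are means of log2 CPM with a prior count of 2. limma 3.58.1 (voom) and DESeq2 1.42.0 were alternatives, beside other scalings and filters, a hepatocyte covariate, a replicate block and each library left out. Coordinates came from Gencode M21 (GRCm38). The scripts were tested on simulated data.

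Named genes were the 5 of smallest p in each direction whose groups did not overlap and whose mean log2 CPM was at least 0, a panel of 28, the 2 of smallest p in each list and the 5 of smallest p in each other comparison. The 37 lists hold 678 entries, of which 673 matched and 627 were tested. The groups compared and the lists were chosen with earlier results of these data known. A result that needs an item withheld for evaluation is not reported here.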

Additional observations from a re-analysis of the deposited data

How the results depend on the processing

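At the adjusted threshold edgeR called 0 genes in all 4 comparisons, and 0 to 0 when each library was left out. Against vehicle, DESeq2 called 139 genes, the fit with no filter 1 and the fit with the hepatocyte covariate 7. DESeq2 called 175 genes against anti-PD1 alone and 517 for the departure from additivity. The cause of these differences was not tested. Of 163 results for single genes, 152 kept their direction in every alternative. Gzmb became -0.0016 with a mean count of at least 50, -0.0249 with the hepatocyte covariate and -0.0140 with the replicate block. Cxcl9 became 1.12 with voom and 0.78 with the block, and Mrc1 0.16 with voom, 0.0683 with total count scaling, 0.0351 with no filter and 0.10 with the block. With each library left out in turn, log2 values ranged from -0.32 to 0.65 for Pdcd1, -0.43 to 0.70 for Gzmb, -1.13 to 3.06 for Cxcl9, -0.37 to 0.60 for Mrc1, -1.80 to 0.26 for Nos2, -1.62 to 1.17 for Il6, -0.0383 to 0.16 for Mapk14, -1.81 to 0.75 for Vegfa, -9e-04 to 1.70 for Actn3, -0.32 to 0.40 for Cela1 and -3.39 to 0.0270 for Krt14.

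Same-numbered vehicle and combination tumors had deviations correlated at 0.0251, 0.162 and 0.0568. Over all pairs of groups, 6 of 18 same-numbered pairs were over 0.1, up to 0.616 for tumors 2 of vehicle and regorafenib alone. With 3 tumors a group, these values cannot decide whether tumors of one number share more than the number. With the replicate number as a block edgeR called 0 genes in each comparison, and 1376 genes had an unadjusted p under 0.05 against vehicle. The number at an unadjusted p under 0.05 against vehicle was 2137 without regorafenib tumor 2 and 907 without combination tumor 3. Leaving out both vehicle tumor 3 and combination tumor 1 was chosen after seeing the data. With 3 tumors a group, low-count genes such as Foxp3 and Gzmk rest on few reads. Counts of several lists against vehicle also turned with the method: under limma voom 3 NK cell genes were higher instead of 0 and 4 interferon response genes instead of 1, under DESeq2 5 neutrophil genes were lower instead of 2, and with no filter 7 ERK feedback genes were higher instead of 3. The unfolded protein and heat shock, endothelial and macrophage counts moved by at most 1.5 times under the scalings, filters and tests tried.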

Other observations

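Genes of the Y chromosome, chosen after their values were seen, had negative log2 changes between the combination and vehicle, none of which passed the adjusted threshold. Ddx3y, an RNA helicase, was at 25.4, 34.4 and 34.2 CPM in the vehicle tumors and at 8.87, 20.0 and 8.73 CPM in the combination tumors, a log2 change of -1.32 ± 0.36. Uty, a histone demethylase of the same chromosome, had a log2 change of -1.24 ± 0.45, Eif2s3y, a translation initiation factor subunit, of -1.21 ± 0.34, and Kdm5d, a histone demethylase, of -0.99 ± 0.41, the last with overlapping groups. In the 8 vehicle tumors of the other experiments Ddx3y ranged from 17.9 to 28.0 CPM. Eif2s3y ranged there from 6.94 to 14.7 CPM, a range that holds all 3 combination tumors and lies below every vehicle tumor of this batch, and Uty ranged from 5.43 to 7.92 CPM, overlapping both groups. What moves these genes was not tested.

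Of the 5 tested mast cell genes, Cpa3, a protease of mast cell granules, had an unadjusted p under 0.05, and 0 did without vehicle tumor 1, vehicle tumor 3 or combination tumor 1. The median log2 change of the list was 2.48, and in 4 of the 5 genes every combination tumor was above every vehicle tumor, against 9.58% of all genes. The levels are low, with Cpa3 from 0.120 to 1.79 CPM in the vehicle tumors of the other experiments, a range that holds every combination tumor, and the median of the list under regorafenib alone was 3.12.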
